A study of Mus musculus with 4 samples.

Results

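Mitochondrial ribosomal protein genes were taken as all table rows whose gene symbol begins with Mrpl or Mrps followed by a digit, the names of the large and the small subunit. These were 85 of 18691 rows and, after FPKM (fragments scaled to transcript length and to the size of the library) had been summed per symbol, 74 of 13749 gene symbols, with 45 large and 29 small subunit genes. All 74 passed the filter for testing, a mean of at least 1 FPKM over the 4 libraries, as did 11083 genes in all. RNA was sequenced from LSK cells, the lineage-negative, Sca-1-positive and Kit-positive bone marrow fraction that contains hematopoietic stem cells and multipotent progenitors. The wild-type group (WT) carried Asxl1+/+ and the knock-in group (KI) Asxl1G643fs/+, a heterozygous frameshift allele of a chromatin regulator that is mutated in myeloid malignancies. Both groups were C57BL/6 mice at 8 weeks of age, 8 animals per genotype, with cells sorted by flow cytometry, and no drug or other agent was named for either. Each genotype had 2 libraries, numbered 1 and 2 and written here as WT-1 or KI-2, for example. The labels did not say how the animals were divided between them. A p-value therefore sets a difference only against the spread between libraries of 1 group, and that spread may be technical. Where the library numbers are compared, each group holds 1 WT and 1 KI library, so the spread includes the genotype difference.

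The mitochondrial ribosome translates the few messenger RNAs of the mitochondrial genome, which encode core subunits of the respiratory chain and of ATP synthase. Its ribosomal RNAs come from mitochondrial DNA, whereas its proteins are encoded in the nucleus, made in the cytosol and imported. The small subunit decodes the messenger RNA, and the large subunit forms the peptide bonds and holds the exit tunnel, which faces the inner membrane. Some members have bacterial counterparts and others are particular to mitochondria. In structures of mammalian mitochondrial ribosomes the proteins of Mrps18a and Mrps30 sit in the large subunit, and the product of Mrps36 has been assigned to the 2-oxoglutarate dehydrogenase complex. These genes are grouped by their symbols here. Long-term hematopoietic stem cells are known for low reliance on mitochondrial respiration compared with their dividing progeny.

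The 4 libraries separated by number more than by genotype. Over all genes tested, Spearman correlations across genes were 0.984 within number 1 and 0.992 within number 2, against 0.963 within WT and 0.966 within KI. Listed FPKM summed to between 324255 and 411542 per library and were higher in both libraries numbered 2; the sequencing depth is unknown. Kit stood between 81.9 and 105 FPKM and Ly6a, which encodes Sca-1, between 20.7 and 41.9, and all 8 LSK markers were listed. Neutrophil markers (5 of 8 listed; Camp, Ly6g and Retnlg not analysed here) summed to 38 FPKM (WT) and 87.7 (KI) in the libraries numbered 1 and to 5.19 and 3.73 in those numbered 2. Monocyte and macrophage markers, 6 of 7 listed, summed to 75.1 and 92.1 in the libraries numbered 1 (WT, KI) and to 172 and 170 in those numbered 2. B cell markers, 7 of 7 listed, summed to 25.1 and 30.9 against 58.1 and 98.9. No listed marker was at 0. Over the 4 libraries, 6 of 8 markers of T and NK cells summed to between 43.0 and 57.7 FPKM, 5 of 8 erythroid markers to between 9.29 and 27.1, and 5 of 6 megakaryocyte markers to between 30.1 and 41.6. Asxl1 stood at 20.8 FPKM in WT-1, 22.2 in KI-1, 18.8 in WT-2 and 19.1 in KI-2; its level does not show the frameshift allele.

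Promoters of 4 genes are shown because their genes mark the ends of the comparisons described further on. Mrpl39 was the only member lower in both KI libraries than in both WT libraries, and Mrps31 had the largest difference upward. Mrpl46 differed most between the library numbers, and Mrps22 was the only member lower in the libraries numbered 2. Each window holds the 250 bases before to the 50 bases after a transcript start in the RefSeq promoter table on GRCm38.p6, written 5′ to 3′ on the strand of the gene. That start is the start of the RefSeq gene span for Mrpl39, Mrpl46 and Mrps22, but for Mrps31 it is 22411340, 891 bases inside the span. Capitals mark matches, on either strand, to the motifs searched: the NRF1 palindrome (the 10 capitals in the Mrpl39 window), CCGGAAG (ETS factors), AAGATGGCG (YY1), CACGTG (E-box), CCAAT and GGGCGG (GC box). None of these motifs contains another, although matches could overlap in a promoter.
Mrpl39, chr16:84735195-84735494, minus strand: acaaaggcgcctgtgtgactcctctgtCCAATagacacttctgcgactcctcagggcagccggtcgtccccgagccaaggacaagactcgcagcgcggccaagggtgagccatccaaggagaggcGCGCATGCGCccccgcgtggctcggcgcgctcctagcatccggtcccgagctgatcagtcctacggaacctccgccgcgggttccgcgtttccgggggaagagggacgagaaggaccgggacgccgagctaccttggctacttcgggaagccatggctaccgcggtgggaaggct
Mrps31, chr8:22411090-22411389, plus strand: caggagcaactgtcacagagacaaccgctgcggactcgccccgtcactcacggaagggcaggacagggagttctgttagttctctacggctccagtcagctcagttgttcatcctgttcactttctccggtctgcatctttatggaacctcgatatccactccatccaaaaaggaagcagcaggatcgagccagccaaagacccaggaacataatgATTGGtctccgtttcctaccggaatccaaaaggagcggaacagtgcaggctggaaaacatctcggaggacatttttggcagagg
Mrpl46, chr7:78783040-78783339, minus strand: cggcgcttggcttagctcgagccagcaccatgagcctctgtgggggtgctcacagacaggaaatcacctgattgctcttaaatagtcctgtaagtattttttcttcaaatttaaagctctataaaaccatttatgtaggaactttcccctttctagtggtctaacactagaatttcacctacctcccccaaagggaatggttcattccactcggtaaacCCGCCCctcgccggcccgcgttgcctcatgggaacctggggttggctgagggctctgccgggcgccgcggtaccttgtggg
Mrps22, chr9:98601630-98601929, minus strand: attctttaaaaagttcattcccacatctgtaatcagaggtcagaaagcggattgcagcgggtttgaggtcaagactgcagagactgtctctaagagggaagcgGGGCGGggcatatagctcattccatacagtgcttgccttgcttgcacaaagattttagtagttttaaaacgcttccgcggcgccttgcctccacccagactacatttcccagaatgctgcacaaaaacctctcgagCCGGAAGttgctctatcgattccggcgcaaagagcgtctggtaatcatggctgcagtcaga

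The Mrpl39 window held the NRF1 motif at position -125 and CCAAT at -223, counted from the start used for the window to the first base of the match. The Mrps31 window held CCAAT on the other strand at -34, the Mrpl46 window held the GC box on the other strand at -31, and the Mrps22 window held the ETS motif at -11 and the GC box at -147. A RefSeq promoter was matched for 65 members. The ETS motif was found in 23 of these (35.4%), 12 of large and 11 of small subunit genes, against 21.7% of tested genes with a promoter and 8.86% of all 32851 windows of the same length. The YY1 motif was found in 8 members (12.3%), against 3.95% and 1.40%. The NRF1 motif was found in Mrpl9, Mrpl32 and Mrpl39 (4.62%), against 2.53% and 0.971%. The GC box was found in 32 members (49.2%), fewer than the 69.8% of tested genes and more than the 35.7% of all windows. CCAAT was found in 25 members (38.5%, against 43.6% and 37.4%) and the E-box in 4 (6.15%, against 12.2% and 7.15%). A match describes these letters only and says nothing of binding.

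The members lay on 17 chromosomes, with 10 on chromosome 11 and 0 on X or Y. Of the 74, 22 (29.7%) stood head to head with a protein-coding gene, against 13.3% of tested genes in the GENCODE M21 annotation of GRCm38. Such a gene started on the opposite strand within 1000 bases, and the pair ran apart or overlapped only near their starts. Mrps12, which encodes a decoding-site protein, was such a neighbour of Sars2, the mitochondrial seryl-tRNA synthetase gene, and Mrpl32 of Psma2, a proteasome subunit gene. Exons of 30 members (40.5%) overlapped those of another gene, against 34.9% of tested genes. Mrpl46 and Mrps11, both members, were among these, and they were not counted as head to head. Their RefSeq spans abut on chromosome 7, with Mrpl46 from 78775341 to 78783089 on the minus strand and Mrps11 from 78783131 to 78792988 on the plus strand, and their GENCODE exons overlap. The sources used here do not say whether quantification used strand, so reads of overlapping genes may be shared. Pseudogenes named after Mrpl23, Mrpl48 and Mrps36 (5 in all) could likewise share reads with them.

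Mitochondrial ribosomal protein genes were expressed above the median of tested genes. The median of mean FPKM over the 4 libraries was 24.2 over the members, 21.4 over large and 24.5 over small subunit genes, against 11.8 over all genes tested. Mrpl42, which encodes a large subunit protein particular to mitochondria, had the highest level and stood at 110.2 FPKM in WT-1, 91.0 in KI-1, 106 in WT-2 and 113 in KI-2. The WT values lay within the range of the KI values. Mrpl33, Mrpl13, Mrpl52, Mrps21, Mrpl30, Mrps16 and Mrpl24 followed in the 8 highest. All values of Mrpl33 and Mrpl13 lay above all values of Mrpl30, Mrps16 and Mrpl24. Ranges over the 4 libraries overlapped for every other pair among the genes that followed Mrpl42. The range of Mrpl42 overlapped only that of Mrpl52 among these 8. Mrpl52 ranged from 44.3 FPKM in KI-1 to 105 in KI-2, Mrpl13 from 63.1 in WT-1 to 87.2 in WT-2 and Mrpl33 from 64.4 in KI-1 to 86.1 in KI-2. Mrps21, the counterpart of a bacterial small subunit protein, ranged from 46.1 FPKM in WT-1 to 73.7 in WT-2. The lowest library of each was numbered 1 and the highest was numbered 2. Mrpl17, which encodes the counterpart of a bacterial large subunit protein, had the lowest mean, 3.89 FPKM. It stood at 2.62 FPKM in WT-1, 2.57 in KI-1, 5.14 in WT-2 and 5.24 in KI-2. Mrpl1, of the stalk at the tRNA exit side, Mrpl11, of the stalk base where translation factors bind, and Mrpl19 were also among the lowest 4. Levels across members followed the library number as well: Spearman correlations across the 74 genes were 0.963 within number 1 and 0.984 within number 2, against 0.926 within WT and 0.928 within KI.

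**Figure D1:**
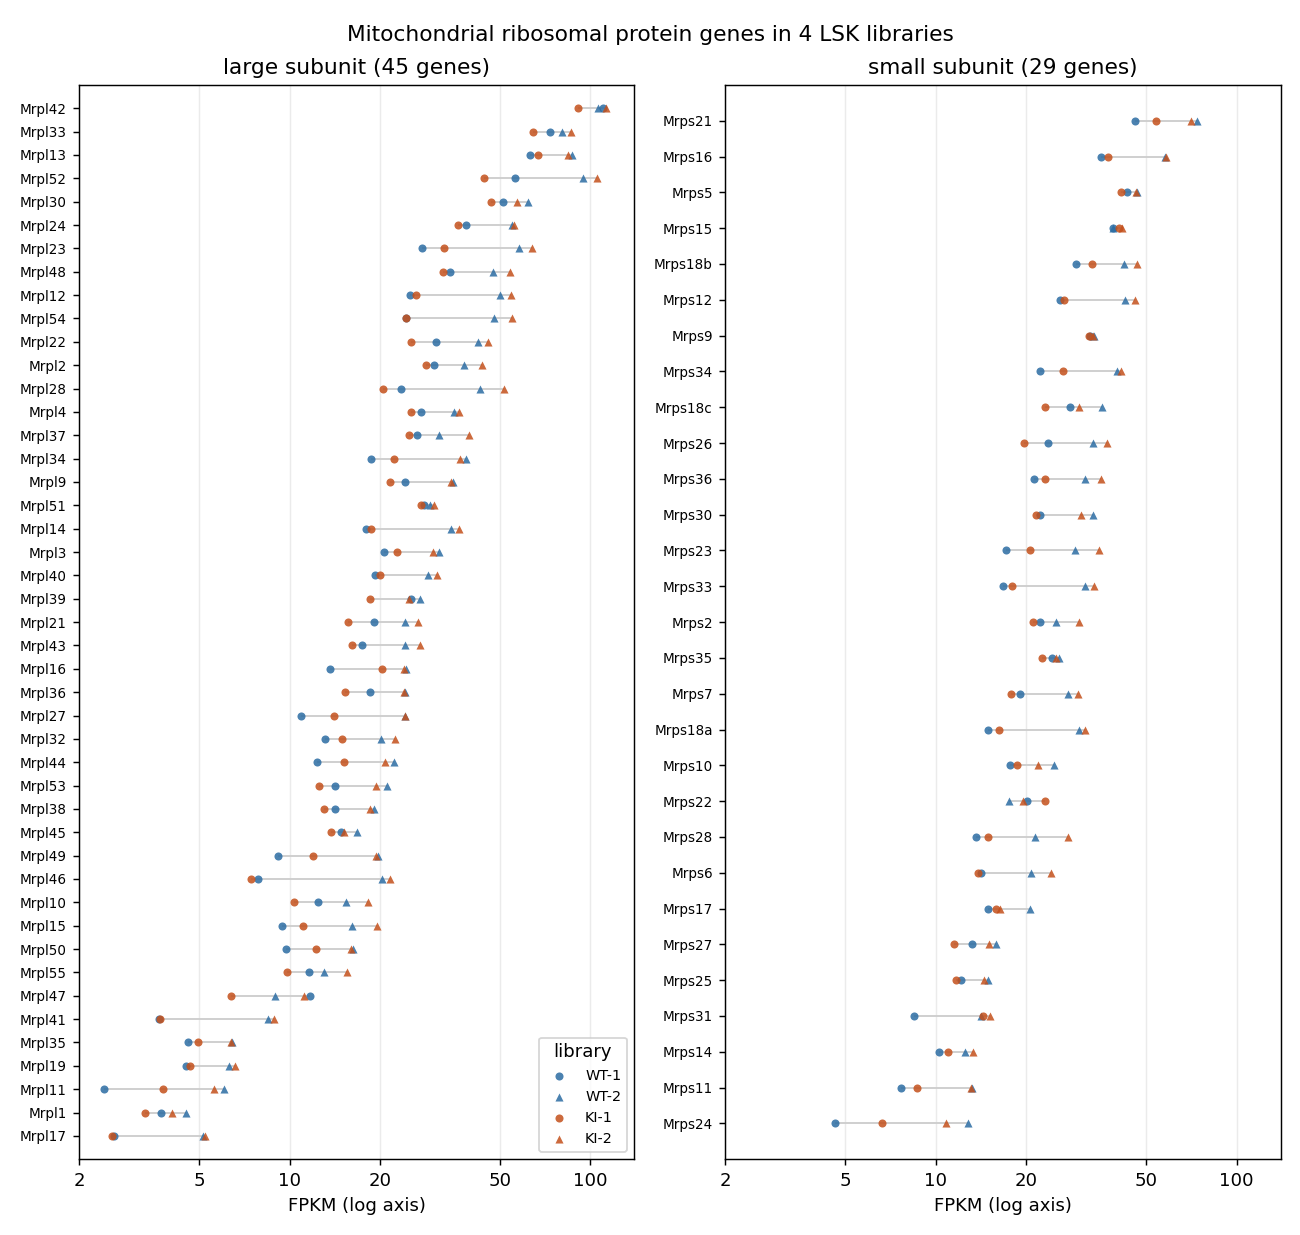
FPKM (log axis) of each large (left) and small (right) subunit gene in the 4 libraries, with 1 point per library and genes ordered by mean level. Points of the same library number lie together for most genes, and the member means run from 3.89 to 105 FPKM.

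Setting KI against WT addresses the effect of 1 mutant Asxl1 allele in LSK cells. No mitochondrial ribosomal protein gene was called between the genotypes, in a design of 2 libraries against 2 that called no gene at all. Limma, with genotype as the only term, called 0 of the 74 members at an adjusted p under 0.05, as it did 0 of 11083 genes (0.0%). At an unadjusted p under 0.05 it had 0 members and 47 genes (0.424%). The median log2 difference KI minus WT was 0.037 over the members and 0.0075 over all genes tested, and single members ranged from -0.28 to 0.40, with quartiles of -0.050 and 0.098. Of the members, 47 stood higher in KI (63.5%), against 52.1% of all genes tested, and 27 stood lower. Their median SE was 0.31, and the difference was larger than its own SE in 3 members. With 2 libraries against 2, an exact two-sided permutation test cannot give a p below 0.333. In bulk RNA, a change in the number of cells of one type and a change in RNA per cell cannot be told apart.

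The members' median was not stable to leaving out a single library. It was -0.25 without WT-1 and -0.25 without KI-2, but 0.25 without WT-2 and 0.34 without KI-1. Over all genes tested the median moved in the same directions, to -0.13, -0.12, 0.14 and 0.13. Each of these fits leaves the library numbers unequal between the genotypes. Within the library numbers, the median of KI-1 minus WT-1 was -0.0058 over the members, with 37 of 74 higher, and that of KI-2 minus WT-2 was 0.057, with 45 higher. The medians over all genes tested were 0.016 and -0.00038. In both numbers KI was higher in 23 members, against 28.7% of genes tested, and lower in 15, against 25.5%. The direction differed between the numbers in 36 members, against 45.8% of genes tested.

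**Figure D2:**
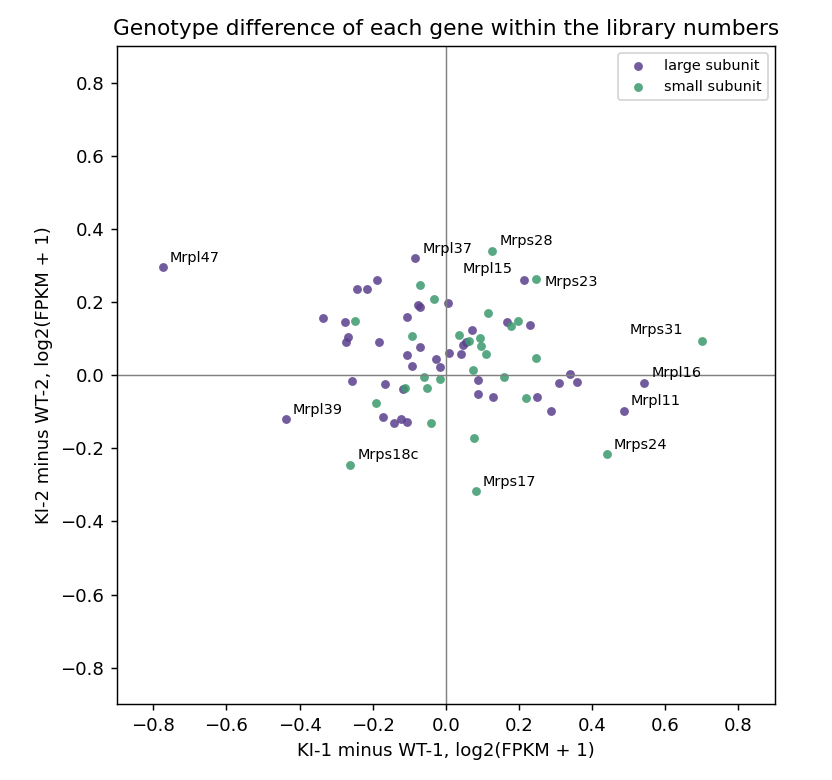
Each point is 1 of 74 mitochondrial ribosomal protein genes, with the log2(FPKM + 1) difference KI-1 minus WT-1 on the x axis and KI-2 minus WT-2 on the y axis, coloured by subunit. Points lie in all 4 quadrants: 23 genes were higher and 15 lower in KI in both numbers, and 36 differed in direction.

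Both KI values lay above both WT values in Mrps15 and Mrps31 (2 members, against 6.39% of genes tested) and below both in Mrpl39 (1 member, against 7.06%). Values did not overlap between the genotypes in these 3 members (4.05%), against 13.5% of genes tested. Mrpl39 encodes a large subunit protein particular to mitochondria, on chromosome 16 from 84718281 to 84735244. It stood at 25.4 FPKM in WT-1, 18.5 in KI-1, 27.2 in WT-2 and 25 in KI-2. KI-1 was the low library, and KI-2 lay just under WT-1. The mean was 26.3 ± 1.31 for WT against 21.7 ± 4.59 for KI (SD, n = 2 per genotype), with a log2 fold change of -0.28, SE 0.23, which did not pass the limma test. Mrps31 encodes a small subunit protein particular to mitochondria, on chromosome 8 from 22410449 to 22429669, and stood at 8.47 FPKM in WT-1, 14.4 in KI-1, 14.1 in WT-2 and 15.1 in KI-2. WT-1 was the low library, and the other 3 lay close together. The mean was 11.3 ± 4.0 for WT against 14.8 ± 0.531 for KI (SD, n = 2 per genotype), and the log2 fold change was 0.40, SE 0.28, also without a call. Mrps15, chosen after its values were seen, encodes the counterpart of a bacterial small subunit protein and stood at 38.9 FPKM in both WT libraries, 40.7 in KI-1 and 41.6 in KI-2. Its log2 fold change was 0.078, with an SE of 0.20. After scaling each library to the same median, values did not overlap in 9 members (12.2%), against 20.5% of genes: Mrps14 and Mrps31 above, against 10.6% of genes, and Mrpl1, Mrpl30, Mrpl39, Mrpl45, Mrps18c, Mrps25 and Mrps27 below, against 9.92%.

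Among other large subunit genes lower in KI, Mrpl47 stood at 11.7 FPKM in WT-1, 6.4 in KI-1, 8.94 in WT-2 and 11.2 in KI-2. Its difference turned between the numbers, from -0.77 in number 1 to 0.30 in number 2, and its exons overlap Actl6a and Ndufb5. Mrpl45, whose protein ties the ribosome to the inner membrane, stood at 14.8 FPKM in WT-1, 13.7 in KI-1, 16.7 in WT-2 and 15.2 in KI-2. In each number the KI value was the lower, although KI-2 lay above WT-1, and the differences were -0.11 and -0.13. Mrpl30, whose bacterial counterpart lies in the large subunit, was lower by the same log2 amount in both numbers, -0.12 each, with 51.1 FPKM in WT-1, 46.8 in KI-1, 61.9 in WT-2 and 56.9 in KI-2. Mrpl1 (-0.14 and -0.13) and Mrpl53 (-0.17 and -0.11) were also lower in KI in both numbers. None of these differences passed the test, and each log2 fold change was smaller than its SE with genotype as the only term. That SE takes in the difference between the library numbers. With library number as a term, Mrpl30 had -0.12, SE 0.074, Mrpl45 -0.12, SE 0.091, and Mrpl53 -0.14, SE 0.090. Mrpl1 had -0.136, SE 0.136, and Mrpl47 -0.24, SE 0.25, and none was called.

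Among large subunit genes higher in KI, Mrpl16, whose bacterial counterpart lies near the peptidyl transferase centre, stood at 13.7 FPKM in WT-1, 20.4 in KI-1, 24.3 in WT-2 and 24 in KI-2. WT-1 was the low library, and the difference was 0.54 in number 1 and -0.021 in number 2. Mrpl15 stood at 9.43 FPKM in WT-1, 11.1 in KI-1, 16.1 in WT-2 and 19.5 in KI-2, higher in KI in both numbers by 0.21 and 0.26. Mrpl32, whose precursor is matured by the m-AAA protease of the inner membrane, stood at 13.2 FPKM in WT-1, 14.9 in KI-1, 20.1 in WT-2 and 22.4 in KI-2, with differences of 0.17 and 0.15. In these last 2 genes the gap between the numbers exceeded the gap between the genotypes. Mrpl11 stood at 2.42 FPKM in WT-1 and 3.79 in KI-1, but at 6.07 in WT-2 and 5.61 in KI-2. Mrpl12, of the stalk that recruits translation factors, showed differences of 0.072 and 0.12. Mrpl44, a protein with a ribonuclease III-like fold whose gene is mutated in a human cardiomyopathy, turned from 0.29 in number 1 to -0.097 in number 2.

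Among small subunit genes, Mrps23 was higher in KI in both numbers by nearly the same amount, 0.25 and 0.26. It stood at 17.2 FPKM in WT-1, 20.5 in KI-1, 29 in WT-2 and 35.0 in KI-2. The genotypes overlap because both libraries numbered 1 lie below both numbered 2. Mrps28 stood at 13.6 FPKM in WT-1, 15 in KI-1, 21.4 in WT-2 and 27.4 in KI-2, in the same order as Mrps23, with differences of 0.13 and 0.34. Mrps22, mutated in a human mitochondrial disease, stood at 20.1 FPKM in WT-1, 23.2 in KI-1, 17.6 in WT-2 and 19.6 in KI-2. KI was the higher in each number, while WT-1 lay above KI-2, and the log2 fold change was 0.17 with SE 0.22. Mrps34 (0.25 and 0.046) and Mrps16 (0.075 and 0.014), both mutated in human mitochondrial disease, and Mrps12 (0.036 and 0.11) were higher in KI in both numbers without a call. Mrps36 stood at 21.2 FPKM in WT-1, 23.0 in KI-1, 31.4 in WT-2 and 35.5 in KI-2, also higher in KI in each number. Mrps24, which encodes the counterpart of a bacterial protein at the messenger RNA entry, went from 0.44 in number 1 to -0.22 in number 2. Mrps17 went from 0.082 to -0.32. Mrps27, a pentatricopeptide repeat protein gene, was lower in KI in both numbers, by -0.19 and -0.076.

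The 3 Mrps18 genes encode related proteins that descend from the same bacterial small subunit protein. Mrps18c stood at 27.9 FPKM in WT-1, 23.1 in KI-1, 35.8 in WT-2 and 30.0 in KI-2, lower in KI in both numbers by -0.26 and -0.24. KI-1 was the lowest library and WT-2 the highest, and the KI-2 value lay between the WT values. Averages were 31.8 ± 5.60 for WT against 26.6 ± 4.92 for KI (SD, n = 2 per genotype), with a log2 fold change of -0.25, SE 0.25. Mrps18b stood at 29.2 FPKM in WT-1, 33.1 in KI-1, 42.4 in WT-2 and 46.6 in KI-2, higher in KI in both numbers by 0.18 and 0.13. Mrps18a stood at 15 FPKM in WT-1, 16.2 in KI-1, 30.0 in WT-2 and 31.3 in KI-2, and its 2 libraries numbered 2 lay far above the 2 numbered 1. None of the 3 passed the test, and whether they differ from each other in the genotype difference was not tested.

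Large and small subunit genes were compared by their medians, and the gap between them was not tested. The median log2 difference KI minus WT was 0.027 over large and 0.078 over small subunit genes, a gap of -0.051 for large minus small. That gap was -0.15 within number 1, where large subunit genes had a median of -0.071 and small subunit genes of 0.076. Within number 2 the medians were 0.056 and 0.058 and the gap was -0.0015. The large minus small difference in median log2 level varied between libraries of 1 genotype with an SD of 0.050, averaged over the genotypes. That SD is of median levels and the gaps are of medians of per-gene differences, so they cannot be compared in size. In number 1, 19 large subunit genes were higher and 26 lower in KI, whereas 18 small subunit genes were higher and 11 lower. In number 2, 28 large subunit genes were higher and 17 lower, and 17 small subunit genes were higher and 12 lower. Without KI-2 the gap was -0.12, and without WT-1 it was -0.0050. With Mrps18a and Mrps30 counted in the large subunit and Mrps36 in neither, an alternative chosen after seeing the data, the gap was -0.050. No p-value is given for these medians, since members are not replicates.

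The summed FPKM of large subunit genes was 1038 in WT-1, 985 in KI-1, 1470 in WT-2 and 1550 in KI-2. The sum over small subunit genes was 620 in WT-1, 645 in KI-1, 867 in WT-2 and 893 in KI-2. Both sums were higher in the libraries numbered 2, and KI-1 had the lowest large subunit sum while WT-1 had the lowest small subunit sum. The ratio of large to small was 1.67 in WT-1, 1.53 in KI-1, 1.70 in WT-2 and 1.74 in KI-2, so that the genotypes overlapped. All members together held 0.491% of the listed FPKM in WT-1, 0.503% in KI-1, 0.580% in WT-2 and 0.594% in KI-2.

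**Figure D3:**
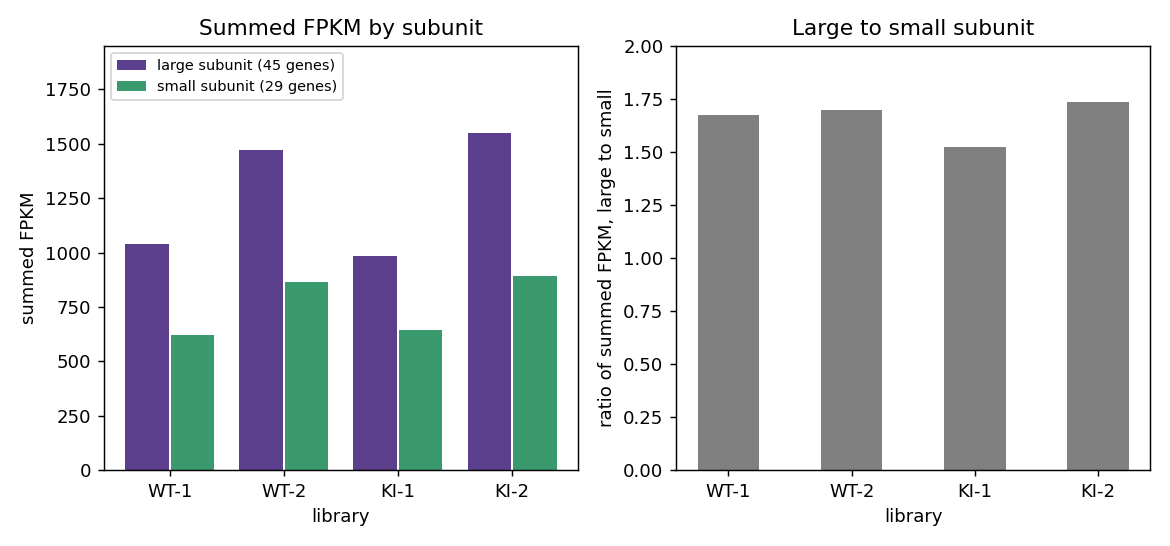
Left, FPKM summed over 45 large and 29 small subunit genes in each library; right, the ratio of the large to the small sum, with both axes from 0. Sums are higher in WT-2 and KI-2 than in WT-1 and KI-1, and the ratio runs from 1.53 in KI-1 to 1.74 in KI-2.

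Mitochondrial ribosomal protein genes had a higher median in the libraries numbered 2 under each scaling run (none, median and quantile). Limma, with library number as the only term, called 52 of 74 members higher in number 2 (70.3%), against 35.6% of genes tested, and 0 lower, against 4.6%, or 40.2% of genes in either direction. Called higher were 35 large (77.8%) and 17 small (58.6%) subunit genes. The count of members called higher was 19 without KI-2, against 9.13% of genes, and 32 without WT-2, against 11.3%. With all libraries, the median log2 difference was 0.53 over members and 0.27 over all genes. In number 2, 73 of 74 members stood higher, against 79.0% of genes tested. Both libraries numbered 2 lay above both numbered 1 in 68 members (91.9%), against 63.5% of genes tested. Neutrophil marker sums of 38 and 87.7 FPKM stood beside 5.19 and 3.73, and all 5 listed neutrophil markers were lower in number 2 in both genotypes. All 7 B cell markers were higher in number 2 in both genotypes, where most genes tested stood higher (79.0%). So were 7 of 8 LSK markers, with 1 lower, and 4 of 6 listed T and NK cell markers, with 0 lower. Of 5 listed megakaryocyte markers 3 were higher and 1 lower, and of 5 listed erythroid markers 0 were higher and 4 lower. Of 6 listed monocyte and macrophage markers, 3 were higher in both genotypes, and Lyz2 made up most of their sum, with 57.1 FPKM in WT-1, 60.5 in KI-1, 152 in WT-2 and 141 in KI-2. Csf1r, the receptor that defines the monocyte path, stood at 3.53 FPKM in WT-1, 11 in KI-1, 4.58 in WT-2 and 7.5 in KI-2, with no common direction. The part of these cell types in the difference was not tested. After scaling the libraries to a common median, which moved them by between -0.13 and 0.14 on the log2 scale, the median was 0.27 over members and 0.014 over all genes. In that scaling, 22 members were called higher, against 9.12% of genes, and Mrps22 was called lower, against 10.4% of genes.

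Mrpl46, which encodes a large subunit protein particular to mitochondria, had the largest difference between numbers. It stood at 7.86 FPKM in WT-1, 7.43 in KI-1, 20.4 in WT-2 and 21.5 in KI-2. The libraries numbered 2 were high in both genotypes, and the genotypes lay side by side within each number. The log2 difference number 2 minus number 1 was 1.34, SE 0.098, with an adjusted p of 0.00236 from limma, while KI minus WT was 0.0025. Mrpl28 (1.07), Mrpl41 (1.04), Mrpl54 (1.04) and Mrpl23, whose protein lines the tunnel exit (1.0), rose next most in number 2, each with an adjusted p of at most 0.00382 from limma. Mrpl28 stood at 23.4 FPKM in WT-1, 20.4 in KI-1, 42.8 in WT-2 and 51.4 in KI-2. Mrpl54 stood at 24.4 FPKM in WT-1, 24.5 in KI-1, 47.8 in WT-2 and 54.9 in KI-2. In both genes the 2 libraries numbered 1 lay well below the 2 numbered 2, and KI-2 was the highest library. Mrpl41, a gene at low level, stood at 3.69 FPKM in WT-1, 3.72 in KI-1, 8.49 in WT-2 and 8.91 in KI-2. Mrpl23 stood at 27.6 FPKM in WT-1, 32.6 in KI-1, 58.0 in WT-2 and 63.9 in KI-2. The genotypes again lay side by side within each number. Mrps18a rose by 0.93 and Mrpl12, with 25.1 FPKM in WT-1, 26.4 in KI-1, 50 in WT-2 and 54.6 in KI-2, by 0.99. Mrps22 was the only member lower in number 2, by -0.21, with an adjusted p of 0.169 from limma. After median scaling it was lower by -0.46, adjusted p = 0.0328 from limma. Mrps15 (0.017), Mrps9 (0.045) and Mrpl51 (0.095), chosen after their values were seen, also showed small differences that passed no test. Mrps9 stood at 32.7 FPKM in WT-1, 32.3 in KI-1, 33.7 in WT-2 and 33.4 in KI-2.

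The difference between the numbers varied with transcript length. Members had a median GENCODE transcript length of 1253 bases, ranging from 405 to 7300, against 2848 over tested genes. In 4 members, Mrpl32, Mrpl51, Mrps16 and Mrps26, this length exceeded the whole RefSeq gene span. It may therefore not be the length of the transcript quantified, and these 4 fall in the classes from 2000 bases. Of genes shorter than 1000 bases, 55.6% were called higher in number 2, with a median difference of 0.50, and the 24 members in that class had a median of 0.68. From 1000 to under 2000 bases the figures were 52.4% and 0.42, and 29 members had a median of 0.54. From 2000 to under 4000 bases 35.1% of genes were called higher, and from 4000 bases 18.8%, with medians of 0.27 and 0.15; the 14 and 7 members there had medians of 0.34 and 0.41, each from under 20 genes. The part of length in the difference was not tested. Cytosolic ribosomal protein genes (57 tested, median length 780 bases) had a median difference of 0.65 and 49 called higher, and nuclear oxidative phosphorylation genes (74 tested, median length 745 bases) had 0.55 and 60. Their medians for KI minus WT were -0.00063 and 0.023, with 0 genes called in either.

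**Figure D4:**
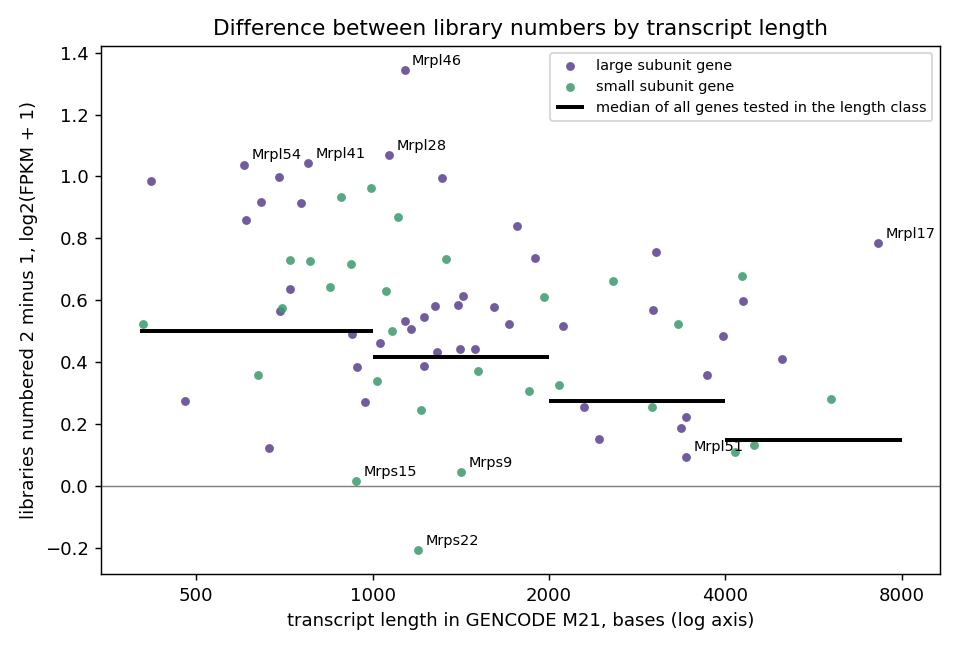
Log2(FPKM + 1) difference of the libraries numbered 2 minus those numbered 1 (y axis) against GENCODE transcript length in bases (log axis). Each point is a mitochondrial ribosomal protein gene, coloured by subunit. Black lines give the median of all genes tested in each length class. Most members lie at short lengths and above 0, with Mrpl46 highest at 1.34 and Mrps22 lowest at -0.21.

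Of the members, 8 had more than 1 row, so that the sum hides isoforms; Mrpl55 and Mrps10 were chosen from them after their values were seen. In Mrpl55, which encodes a large subunit protein particular to mitochondria, the transcript NM_001302336 stood at 8.26 FPKM in WT-1, 5.17 in KI-1, 6.08 in WT-2 and 3.47 in KI-2. This transcript was lower in both KI libraries than in both WT libraries, in number 2 as in number 1. The transcript NM_026035 stood at 2.22 FPKM in WT-1, 2.77 in KI-1, 5.14 in WT-2 and 7.82 in KI-2, and its value was higher in KI in each number. NM_001302335 went the other way from NM_001302336, with both KI values above both WT values. It stood at 1.09 FPKM in WT-1, 1.87 in KI-1, 1.47 in WT-2 and 3.68 in KI-2. NM_001302334 had a mean of 0.22 FPKM. The share of all table rows without overlap is not given here. The sum of the gene overlapped between genotypes. In the authors' deposited table, the signed fold of NM_001302336 was -1.40 with an adjusted p of 0.126. Mrps10, a small subunit gene, had 2 rows at similar level, NM_001146211 between 10.2 and 10.9 FPKM in all libraries and NM_001146212 between 7.03 and 13.8. The division of reads between transcripts of 1 gene rests on the authors' estimate and was not tested.

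**Figure D5:**
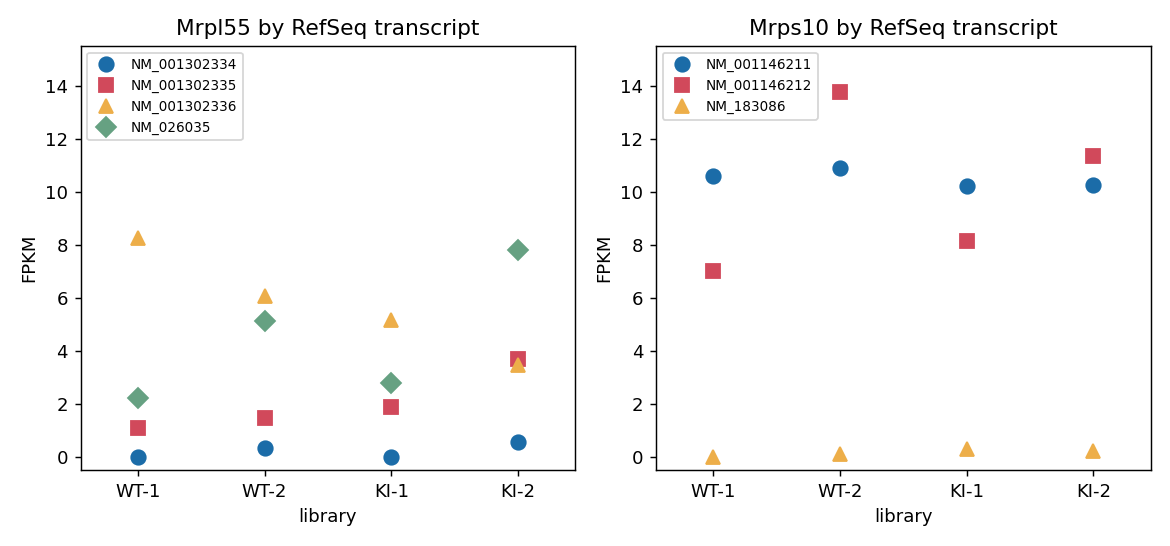
FPKM of each RefSeq transcript row of Mrpl55 and Mrps10 in the 4 libraries, as unconnected points with 1 marker shape and colour per transcript. In Mrpl55, the transcript NM_001302336 is highest in WT-1 at 8.26 and lowest in KI-2 at 3.47, and NM_026035 is highest in KI-2.

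In the authors' deposited table of KI against WT, 0 of the 85 member rows passed an adjusted p of 0.05, as did 3 of 18691 rows in all. Unadjusted p was under 0.05 in 20 member rows, against 21.6% of all rows in that table. The lowest adjusted p of a member row in the authors' deposited table was 0.116, for Mrps14, whose signed fold was 1.05. Mrpl1 (signed fold -1.07), Mrpl32 (1.08) and Mrps25 (-1.03) followed in the authors' deposited table, with adjusted p up to 0.119.

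Other genes of mitochondrial translation were read from 6 lists with 102 symbols, of which 98 were tested. None was called between KI and WT by limma, at an adjusted p or at an unadjusted p under 0.05. Their median difference was 0.0054, with 52 higher and 46 lower, and values did not overlap between genotypes in 20 (20.4%), against 13.5% of all genes. Among 7 subunit genes under other names, Ptcd3, a pentatricopeptide repeat protein of the small subunit, was the one below both WT values in KI. It stood at 25.9 FPKM in WT-1, 25.5 in KI-1, 25.7 in WT-2 and 24.3 in KI-2. Of 14 translation factor genes (median -0.0072, 7 higher and 7 lower), Mtrf1, a release factor gene, stood at 7.23 FPKM in WT-1, 5.54 in KI-1, 7.0 in WT-2 and 5.93 in KI-2. Tufm, the elongation factor Tu gene, stood at 29.3 FPKM in WT-1, 37.8 in KI-1, 44.3 in WT-2 and 49.9 in KI-2. Mtrf1 values lay below WT in both KI libraries, whereas Tufm values overlapped.

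The list of tRNA charging genes held 16 tested synthetase genes, with a median of 0.018, 9 higher and 7 lower, and 3 tested subunit genes of the glutamyl-tRNA amidotransferase (Gatb, in the table as Pet112, Gatc and Qrsl1), with a median of 0.058, 2 higher and 1 lower. Sars2, the head-to-head neighbour of Mrps12, stood at 11.1 FPKM in WT-1, 8.69 in KI-1, 13.9 in WT-2 and 11.5 in KI-2. It was lower in KI in both numbers while Mrps12 was higher in both. Among 28 assembly and ribosomal RNA factor genes (median -0.049, 12 higher and 16 lower), Mettl17, a small subunit assembly factor, stood at 8.53 FPKM in WT-1, 6.27 in KI-1, 9.18 in WT-2 and 8.20 in KI-2. Ftsj2, a methyltransferase of the large ribosomal RNA also named Mrm2, stood at 2.71 FPKM in WT-1, 4.53 in KI-1, 4.31 in WT-2 and 5.65 in KI-2. Mettl17 lay below WT in both KI libraries and Ftsj2 above, and neither passed the test.

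The 20 genes of mitochondrial transcription and RNA turnover had a median of 0.0098, with 10 higher and 10 lower. Mtpap, the mitochondrial poly(A) polymerase, stood at 15.2 FPKM in both WT libraries, 11.6 in KI-1 and 11.5 in KI-2, with a log2 fold change of -0.37, SE 0.20. Slirp, which with Lrpprc keeps mitochondrial messenger RNAs stable, stood at 20.4 FPKM in WT-1, 27.9 in KI-1, 17.8 in WT-2 and 21.8 in KI-2, with 0.35, SE 0.23. In both genes the genotypes did not overlap, and in neither did the difference pass the limma test. Mterf1a, of the mitochondrial transcription terminator family, was lower with -0.55, SE 0.30, and shares sequence with the copy Mterf1b, so that reads may be split between them. The 10 nuclear regulators had a median of 0.070, with 8 higher and 2 lower. Pprc1, a coactivator of NRF1, stood at 18.2 FPKM in WT-1, 19.3 in KI-1, 18.7 in WT-2 and 22.2 in KI-2. Nrf1 itself had a log2 difference of 0.10, and Myc, with 116 FPKM in WT-1, 96.3 in KI-1, 145 in WT-2 and 147 in KI-2, of -0.13.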

How the data were processed

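Per the submitters' processing notes, the authors used TopHat and Cufflinks with the build mm10 (GRCm38); no version of either is given in the sources used here. FPKM was deposited per RefSeq transcript and library and was summed here per symbol, since the table was not per gene as had been assumed. The authors also deposited normalized log2 values, a signed fold, a t score and p-values of KI against WT. The main tests here used FPKM without further scaling, so folds and p-values of the authors and of limma rest on different values. Low values showed no whole-read steps, so library depth is unknown. Genes averaging 1 FPKM or more were tested on log2(FPKM + 1), which understates changes of low genes, with limma 3.58.1 in R 4.3.3 (trended prior variance, two-sided, Benjamini-Hochberg over 11083 genes, threshold 0.05). Simulated data served to check the code of these tests, and nothing is concluded from them about the power of the genotype-only test. Alternatives were other pseudocounts, filters, scalings, 1 row per symbol, a term for library number and leaving out each library. The members and lists were chosen with earlier results of these data known. Named members were the 8 highest and 4 lowest, up to 8 per direction by unadjusted p, up to 6 per direction with the same sign in both numbers, the 5 differing most between numbers, the 5 per direction changing most from number 1 to 2, and members taken by role. From each other list, up to 3 genes of smallest unadjusted p could be named; others are marked as chosen after their values were seen.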

Additional observations from a re-analysis of the deposited data

How the results depend on the processing

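No member or other mitochondrial translation gene was called between KI and WT under any alternative run. The numbers of the libraries are not stated to pair them; deviations from the group means of same-numbered libraries correlated at 0.691 across genes. With library number as a replicate block, 1 gene was called in all (0.00902%) and 0 members, and 4 members had an unadjusted p under 0.05, against 787 genes (7.1%). These 4 were Mrpl15 and Mrps23, higher in KI, and Mrpl39 and Mrps18c, lower in KI. Leaving out 1 library gave 7 to 37 called genes, 32 to 44 members with values that did not overlap (by construction, with 1 library in a group), 19 to 57 members called between numbers (57 without WT-1, 32 without WT-2, 54 without KI-1 and 19 without KI-2), and a large minus small median of -0.12 to -0.0050. Values did not overlap in 54.7% (without KI-2) to 60.4% (without WT-2) of all genes tested in these fits. The lack of overlap was therefore not particular to the members. Calls between numbers over all genes tested also varied between these fits, each with 1 library in a group, and nothing is concluded from these counts. The members' median ran from -0.25 to 0.34, and that over all genes tested from -0.13 to 0.14. Values did not overlap in 9 members under quantile scaling, 9 under median scaling and 5 when the highest row stood for a symbol, against 3. The shares over all genes were 20.5%, 20.5% and 14.6%, against 13.5%. Calls between numbers were 28 under quantile and 23 under median scaling, against 52. Called higher were 27 under quantile scaling, against 9.30% of genes, and 22 under median scaling, against 9.12%. In each scaling 1 member was called lower, against 1156 and 1152 of 11083 genes. The cause was not tested. Mrpl46 was -0.011 for KI minus WT under quantile scaling. Of 58 genes followed, 38 turned direction without at least 1 library, and none was called. Their log2 differences, lowest to highest, were: Asxl1 -0.049 to 0.16, Aurkaip1 -0.30 to 0.44, Ict1 -0.19 to 0.48, Mrpl11 -0.33 to 0.72, Mrpl12 -0.41 to 0.61, Mrpl13 -0.21 to 0.25, Mrpl15 -0.14 to 0.62, Mrpl16 -0.13 to 0.65, Mrpl17 -0.40 to 0.41, Mrpl19 -0.16 to 0.26, Mrpl23 -0.34 to 0.71, Mrpl24 -0.34 to 0.27, Mrpl28 -0.61 to 0.68, Mrpl30 -0.26 to 0.017, Mrpl32 -0.13 to 0.45, Mrpl33 -0.25 to 0.16, Mrpl41 -0.50 to 0.57, Mrpl42 -0.24 to 0.062, Mrpl44 -0.31 to 0.50, Mrpl46 -0.71 to 0.71, Mrpl47 -0.60 to 0.12, Mrpl52 -0.71 to 0.53, Mrpl53 -0.44 to 0.16, Mrpl54 -0.47 to 0.67, Mrps12 -0.31 to 0.46, Mrps16 -0.30 to 0.39, Mrps17 -0.34 to 0.11, Mrps18a -0.40 to 0.56, Mrps18b -0.11 to 0.42, Mrps21 -0.25 to 0.41, Mrps23 -0.12 to 0.63, Mrps24 -0.53 to 0.76, Mrps27 -0.32 to 0.049, Mrps28 -0.18 to 0.65, Mrps34 -0.26 to 0.55, Mrps36 -0.16 to 0.44, Myc -0.43 to 0.17, Tufm -0.027 to 0.55. Each leave-one-out fit leaves library numbers unequal between genotypes. Depth is unknown, so that no counting error is given.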
